A study of Mus musculus with 21 samples.

Results

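The 45 genes described here carry a cell through one round of division: they start S phase, load and run the replication machinery, supply nucleotides, drive entry into mitosis, hold and separate the chromosomes, and close the cycle. They were chosen by symbol from a fixed list, and all 45 were found among the 53801 gene identifiers counted in each of 21 mouse RNA-seq libraries. The study asks whether Fap, the gene for fibroblast activation protein, a protease on the surface of activated fibroblasts, regulates repair of the heart after myocardial infarction (MI). In the heart experiment, tissue labelled border zone, the muscle beside an infarct, was taken at day 7 from 4 groups. These were wild-type (WT) MI hearts given FAPI, labelled MI+FAPI (4 libraries), hearts of the FapKO genotype with MI (4 libraries), WT hearts with MI (4 libraries) and WT sham hearts (3 libraries). In the culture experiment, mouse cardiac fibroblasts spent 7 days in 5% GelMA, a gelatin-based hydrogel, either with heart and lung endothelial cells at 2:1 (co-culture, 3 libraries) or by themselves (3D-culture, 3 libraries).

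The labels do not spell out FAPI, and the series title speaks of inhibition of Fap. The compound and dose, the knockout allele, and the strain, sex and age of the mice are not given. The sham tissue carries the border zone label too, although a sham heart has no infarct. Co-culture fibroblasts were sorted as CD45-, CD31-, Pdgfr-α+ cells, while 3D-culture fibroblasts were extracted with no sort, so partner cells and sort changed together. The labels do not say that each heart library came from its own animal, and the spread behind each p-value is that among the libraries, which may be technical.

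A dividing cell makes these transcripts in waves. Cyclin D and cyclin E with their kinases release the E2F factors, which switch on genes for replication and nucleotide supply. Later, the DREAM and B-MYB complexes and FoxM1 govern genes for mitosis. In the adult mouse heart most cardiomyocytes have left the cycle, and after infarction fibroblasts, endothelial cells and incoming or resident leukocytes are known to divide.

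The promoters of 6 members are shown because their transcripts went different ways below: Ccnb2, Top2a, Mki67, Anln and Mcm6 were higher in MI than in sham hearts, and Cenpf was lower. Each is the 150 bases before the RefSeq start, 5′ to 3′ on the gene's strand, from RefSeq on GRCm38.p6. Capitals mark a CHR element (TTTGAA, where the DREAM complex is known to bind), a CCAAT box (CCAAT, a site of NF-Y) or an E2F site (TTTCCCGC, TTTCGCGC, TTTGCCGC or TTTGGCGC), on either strand, with overlapping matches merged. The windows are chr9:70421555-70421704 (Ccnb2), chr11:99024190-99024339 (Top2a), chr7:135716380-135716529 (Mki67), chr9:22389207-22389356 (Anln), chr1:128359706-128359855 (Mcm6) and chr1:189688087-189688236 (Cenpf), all on the minus strand.
Ccnb2: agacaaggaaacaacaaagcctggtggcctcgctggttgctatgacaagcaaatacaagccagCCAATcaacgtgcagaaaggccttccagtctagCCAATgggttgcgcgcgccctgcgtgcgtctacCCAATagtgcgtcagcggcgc
Top2a: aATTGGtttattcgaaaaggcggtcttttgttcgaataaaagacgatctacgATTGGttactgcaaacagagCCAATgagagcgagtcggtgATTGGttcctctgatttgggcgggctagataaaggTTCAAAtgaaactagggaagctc
Mki67: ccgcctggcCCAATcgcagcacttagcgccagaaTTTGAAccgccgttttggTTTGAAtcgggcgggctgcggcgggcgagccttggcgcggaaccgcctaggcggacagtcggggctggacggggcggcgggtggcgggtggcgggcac
Anln: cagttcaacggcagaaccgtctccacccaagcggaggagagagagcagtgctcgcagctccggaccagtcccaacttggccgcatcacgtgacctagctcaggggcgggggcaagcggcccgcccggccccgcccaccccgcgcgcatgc
Mcm6: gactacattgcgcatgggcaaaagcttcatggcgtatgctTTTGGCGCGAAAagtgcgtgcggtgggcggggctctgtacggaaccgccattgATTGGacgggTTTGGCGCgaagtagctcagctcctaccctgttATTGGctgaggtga
Cenpf: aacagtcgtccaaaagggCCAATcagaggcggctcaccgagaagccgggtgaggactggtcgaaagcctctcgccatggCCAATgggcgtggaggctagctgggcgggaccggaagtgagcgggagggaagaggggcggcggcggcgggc

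The Mki67 window held 2 CHR elements and 1 CCAAT box, and that of Top2a held 1 CHR element and 4 CCAAT boxes. The Ccnb2 window held 3 CCAAT boxes. The Mcm6 window held 3 E2F matches, 2 of them overlapping on opposite strands, and 2 CCAAT boxes. The Cenpf window held 2 CCAAT boxes, and the Anln window held none of these letters. Over 250 upstream bases, the table held 38 promoters of 36 members. Of these, 30 (78.9%) had a CCAAT box, against 33.8% of all 32851 promoters in the table. A CHR element stood in 10 (26.3%), against 16.0% of all promoters, and an E2F site in 6 (15.8%), against 1.9%. E2F sites lay in 5 of 15 promoters of the G1 to S, replication and nucleotide genes, and in 1 of 23 promoters of the mitotic genes. CHR elements lay in 2 of those 15 and in 8 of those 23. These matches describe letters, not bound sites. Ccna2, Foxm1, Mcm4, Ccne2, Kif20a, Ccnd1, Aurkb, Tpx2 and Cdc25c are named only.

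Heart libraries held 18474138 to 37287355 gene counts, and the 45 members together took 271.057 to 411.803 CPM (counts scaled to one common library total) in MI+FAPI, 322.691 to 459.148 in FapKO MI, 442.548 to 675.492 in MI and 205.276 to 261.869 in sham hearts. Levels below are CPM after TMM scaling, a scaling that assumes most genes do not change. Its factors were 1.24 to 1.55 in MI and 0.626 to 0.697 in sham hearts, so it pulls these groups together. With library totals alone, all genes in MI against sham hearts would have a median log2 fold change of 1.23, compared with 0.14 after TMM, and that of the members 1.88, compared with 0.78. Changes are therefore read against the median of all genes. Fap itself had 1.79 to 2.36 CPM in FapKO MI hearts, against 9.40 to 13.2 CPM in MI hearts, and 2.71 to 3.86 CPM in sham hearts. Its counts in FapKO MI hearts did not fall to 0, and the deleted part of the gene is not given.

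Markers of the cell types moved with the groups. Summed cardiomyocyte markers (17 genes, all detected) stood at 45470 to 81440 CPM in MI+FAPI, 66470 to 79350 in FapKO MI, 13590 to 40540 in MI and 112800 to 131500 CPM in sham hearts. Summed macrophage markers (14 genes) stood at 5162 to 9063 CPM in MI+FAPI, 3144 to 5917 in FapKO MI, 7869 to 10970 in MI and 2213 to 2437 CPM in sham hearts. General leukocyte markers (4 genes) stood at 331 to 505 CPM in MI+FAPI, 174 to 282 in FapKO MI, 589 to 645 in MI and 114 to 124 CPM in sham hearts. Fibroblast markers (11 genes) stood at 9774 to 14800 CPM in MI+FAPI, 9162 to 9844 in FapKO MI, 16010 to 22370 in MI and 3846 to 4404 CPM in sham hearts. Endothelial markers (12 genes) stood at 345 to 413 CPM in MI+FAPI and 408 to 456 CPM in FapKO MI hearts. They stood at 291 to 405 CPM in MI and 395 to 453 CPM in sham hearts, which overlapped. Of the 12, 2 were called higher and 6 lower in MI against sham hearts. Summed neutrophil markers (10 of 11 genes past the filter) stood at 44.1 to 71.9 CPM in MI+FAPI, 54.6 to 68.1 in FapKO MI, 115 to 871 in MI and 41.6 to 53.5 CPM in sham hearts. In MI against sham hearts, 10 of 10 neutrophil markers were called higher (median log2 fold change 3.37), as were 4 of 4 granulocyte precursor (3.02), 6 of 6 B cell (2.33) and 5 of 5 T cell markers (2.32). All 4 erythroid markers tested were called lower (-2.32). In bulk tissue, fewer cells of a type and less RNA per cell cannot be told apart, and the part these cell types have in the results below was not tested.

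**Figure D1:**
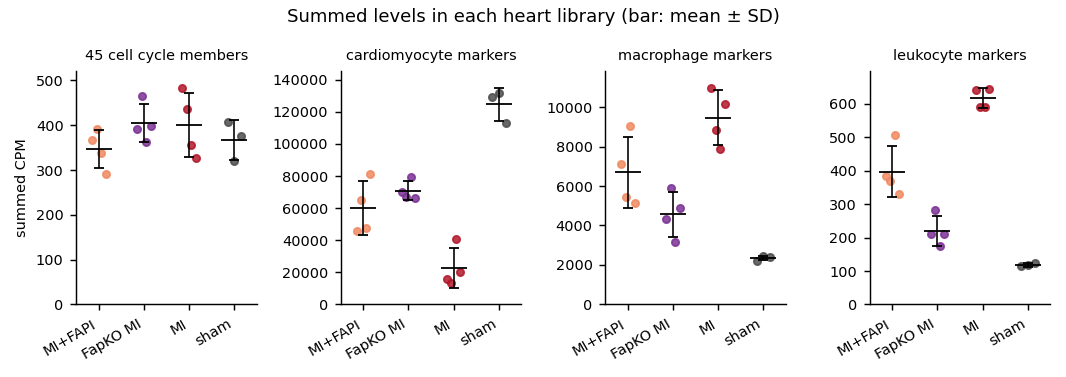
Summed CPM of the 45 members, of 17 cardiomyocyte, 14 macrophage and 4 leukocyte markers in each heart library (points), with mean ± SD, for MI+FAPI, FapKO MI, MI and sham hearts. The summed members overlap between groups (327 to 483 CPM in MI, 319 to 407 CPM in sham hearts), while the markers differ between MI and sham hearts with no overlap.

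At 7 days after infarction, most genes of mitosis were higher in MI than in sham hearts, while replication genes moved less and 4 members were lower. Whether genes of mitosis and of replication differ in this was not tested. Of the 44 members tested, 30 were called higher and 4 lower at an adjusted p under 0.05 (quasi-likelihood test of edgeR, Benjamini-Hochberg adjusted over 17064 genes). Across all genes tested, 37.1% were called higher and 32% lower. The median log2 fold change of the members was 0.78, against 0.14 for all genes. Kif20a, a kinesin of cytokinesis, had 1 to 14 counts per heart library, was too low to test, and is the member left out. The summed level of the members, which adds genes called in both directions, overlapped between MI and sham hearts.

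**Figure D2:**
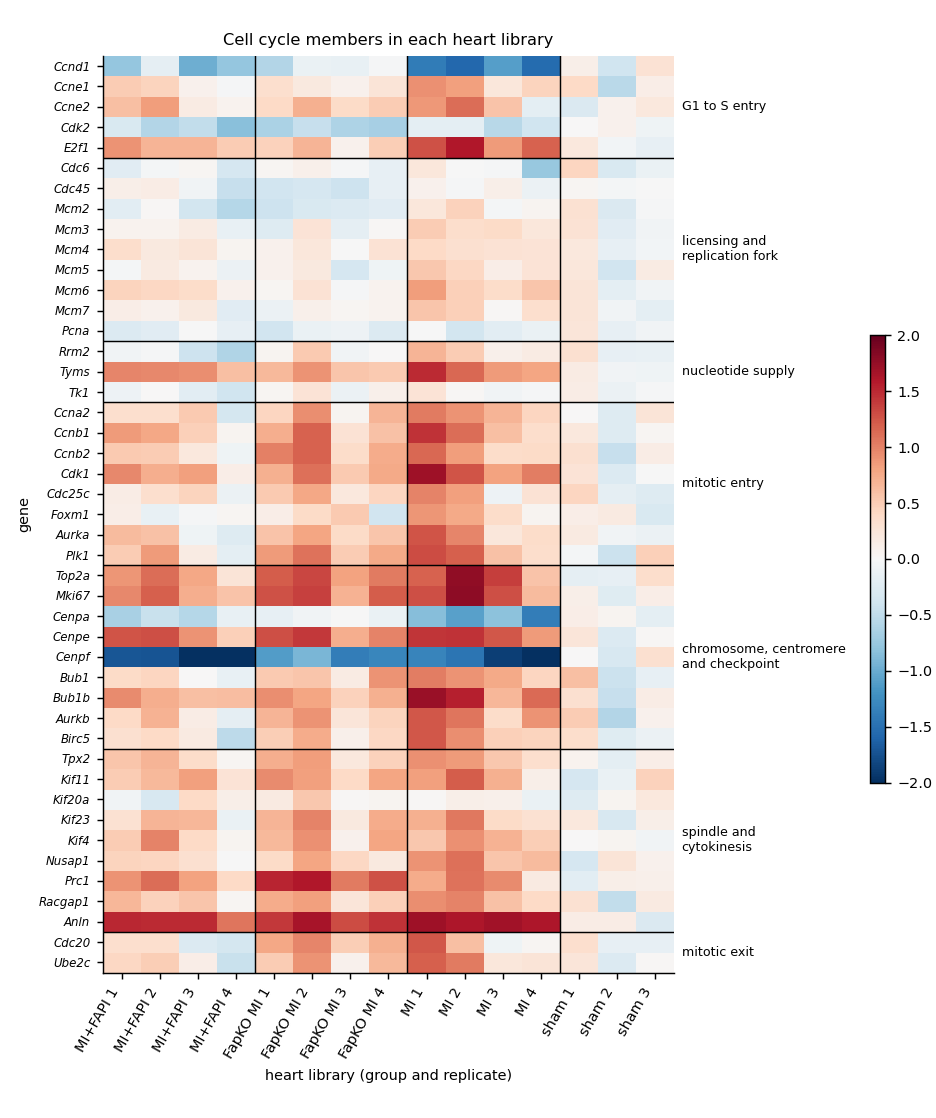
Log2(CPM + 0.5) of each member (rows, by role) in each heart library (columns), minus the mean of the sham libraries. Red marks levels above and blue below that mean. In the MI libraries, Ccnd1 forms a blue row among the G1 genes, and Cenpa and Cenpf form blue rows among mostly red mitotic genes.

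At the gate from G1 into S phase, all 5 members were called in MI against sham hearts, 3 higher and 2 lower. Of all genes tested, 37.1% were called higher and 32% lower. Ccnd1, encoding cyclin D1, the partner of Cdk4 and Cdk6, had 17.9, 15.8, 22.03 and 16.1 CPM in MI hearts, against 51.7, 36.3 and 58.3 CPM in sham hearts. The groups did not overlap, and the log2 fold change was -1.44 ± 0.20 (SE). With library totals it was -0.37 and no longer passed. Cdk2, the kinase that pairs with cyclin E, had 11.98, 11.96, 9.21 and 10.2 CPM in MI hearts, against 13.7, 14.6 and 12.9 CPM in sham hearts. The groups did not overlap. Its log2 fold change was -0.34 with TMM and turned to 0.76 with library totals, so its direction depends on the scaling. E2f1, a transcription factor for S phase genes, had 6.47, 8.22, 4.67 and 6.05 CPM in MI hearts, against 2.83, 2.29 and 2.07 CPM in sham hearts. Every MI library lay above every sham library, with a log2 fold change of 1.40 ± 0.21. Ccne1 and Ccne2, encoding the cyclins E, were higher by 0.68 and 0.73 on the log2 scale, with MI libraries that overlapped sham libraries.

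Among the 9 genes that license and copy DNA, 4 were called higher in MI hearts and the other 5 did not pass. That share is near the 37.1% of all genes called higher. The Mcm2 to Mcm7 genes encode the subunits of the replicative helicase. Mcm6 had 15.9, 12.2, 11.4 and 12.99 CPM in MI hearts, against 10.5, 7.51 and 8.27 CPM in sham hearts. No MI library lay as low as any sham library, and the log2 fold change was 0.58 ± 0.15. Mcm3, Mcm4 and Mcm7 were higher by 0.39, 0.35 and 0.37 on the log2 scale. Mcm2 (0.19) and Mcm5 (0.36) did not pass, nor did Cdc6 (-0.18), which helps load the helicase, or Cdc45 (0.02), which joins it when it fires. Pcna, the sliding clamp of the fork, had 29.9, 23.2, 25.9 and 27.4 CPM in MI hearts, against 35.4, 26.7 and 28.6 CPM in sham hearts. Its groups overlapped, and its log2 fold change was -0.19 ± 0.12, not past the threshold.

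Of the 3 genes that supply nucleotides, Tyms was called higher, a share near the 37.1% of all genes. Tyms, encoding thymidylate synthase, had 41.7, 32.6, 26.6 and 25.4 CPM in MI hearts, against 16.2, 13.8 and 13.6 CPM in sham hearts. All MI libraries were above all sham libraries, and the log2 fold change was 1.12 ± 0.17. Tk1, encoding the cytosolic thymidine kinase, had 14.5, 12.2, 11.4 and 11.8 CPM in MI hearts, against 13.4, 10.97 and 11.8 CPM in sham hearts. Its log2 fold change of 0.05 ± 0.13 was smaller than its error. Rrm2, the small subunit of ribonucleotide reductase, had a log2 fold change of 0.38 ± 0.20 and did not pass.

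Entry into mitosis rests on Cdk1 with cyclins A and B. In MI against sham hearts, 6 of its 8 members were called higher, beside 37.1% of all genes. Cdk1 had 38.03, 27.7, 20.1 and 23.5 CPM in MI hearts, against 13.8, 9.34 and 11.3 CPM in sham hearts. The groups did not overlap, and the log2 fold change was 1.25 ± 0.23. Ccnb2, encoding cyclin B2, had 19.1, 15.3, 10.8 and 10.98 CPM in MI hearts, against 10.5, 5.88 and 9.3 CPM in sham hearts. All MI libraries were above the sham ones, the nearest pair at 10.8 and 10.5 CPM, and the log2 fold change was 0.72 ± 0.25. Ccna2 and Ccnb1, encoding cyclins A2 and B1, were higher by 0.88 and 1.03, and the kinase genes Aurka and Plk1 by 0.87 and 1.04 on the log2 scale. Cdc25c, a phosphatase that activates Cdk1, and Foxm1, a factor for mitotic genes, had log2 fold changes of 0.89 ± 0.45 and 0.95 ± 0.43 and did not pass.

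The 9 genes of chromosomes, centromeres and the spindle checkpoint were all called in MI against sham hearts, 7 higher and 2 lower. Among all genes tested, 37.1% were called higher and 32% lower. Mki67 encodes Ki-67, a coat of mitotic chromosomes and the usual marker of proliferating cells. It had 9.25, 13.3, 9.24 and 5.67 CPM in MI hearts, against 3.82, 2.87 and 3.86 CPM in sham hearts. The lowest MI library stood above the highest sham library, with a log2 fold change of 1.42 ± 0.26. Top2a, the topoisomerase that untangles sister chromatids, had 19.1, 29.00, 22.1 and 12.4 CPM in MI hearts, against 7.15, 7.18 and 10.5 CPM in sham hearts. These groups did not overlap either, and the log2 fold change was 1.32 ± 0.26. Cenpe, the kinetochore motor, was higher by 1.39, and the checkpoint genes Bub1 and Bub1b by 1.20 and 1.81. Aurkb and Birc5, of the chromosomal passenger complex, were higher by 1.01 and 0.81 on the log2 scale. Counts of Bub1 were low, with 20 to 49 in MI and 3 to 15 in sham libraries.

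Cenpa and Cenpf went the other way from the rest of their group. Cenpa, the histone H3 variant that marks the centromere, had 33.5, 28.4, 34.1 and 23.04 CPM in MI hearts, against 66.7, 62.9 and 53.1 CPM in sham hearts. Every MI library was below every sham library, with a log2 fold change of -1.03 ± 0.14 after TMM, though with library totals it was 0.05, so its fall is relative to the other genes. Cenpf, a kinetochore and nuclear envelope protein, had 15.9, 14.4, 10.6 and 9.48 CPM in MI hearts, against 40.6, 32.3 and 50.5 CPM in sham hearts. The sham libraries stood above all others, and the log2 fold change of -1.70 ± 0.20 was the lowest of the members (edgeR, adjusted p = 1.5e-06). It kept its sign with library totals, at -0.62. Cenpf lies on chromosome 1 (189640606 to 189688086, minus strand) and Cenpa on chromosome 5 (30666777 to 30674830, plus strand; GENCODE M21 on GRCm38).

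All 8 tested genes of the spindle and cytokinesis were called higher in MI than in sham hearts, beside 37.1% of all genes. Anln, encoding anillin, a scaffold of the contractile ring, had 4.21, 3.94, 4.17 and 3.97 CPM in MI hearts, against 1.11, 1.11 and 0.689 CPM in sham hearts. The 4 MI libraries lay close together and far above the sham ones, and the log2 fold change of 2.06 ± 0.19 was the highest of the members (edgeR, adjusted p = 1.13e-07). Nusap1, a microtubule-binding spindle protein, had 6.19, 7.19, 4.76 and 5.05 CPM in MI hearts, against 2.34, 3.79 and 3.31 CPM in sham hearts. Racgap1, of the central spindle, had 5.72, 6.03, 4.45 and 3.81 CPM in MI hearts, against 3.57, 1.83 and 3.24 CPM in sham hearts. Neither gene's groups overlapped, and their log2 fold changes were 0.89 ± 0.21 and 0.80 ± 0.24. Prc1, which bundles microtubules of the central spindle, was higher by 1.07, Kif4, a chromosome-bound kinesin, by 1.02, and Kif11, the motor that keeps the spindle bipolar, by 0.99. Tpx2, a spindle assembly factor, and Kif23, a partner of Racgap1, were higher by 0.77 and 0.75 on the log2 scale.

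At mitotic exit, Ube2c, the conjugating enzyme of the anaphase-promoting complex, had 21.4, 19.3, 10.7 and 11.02 CPM in MI hearts, against 10.9, 7.45 and 9.23 CPM in sham hearts. The groups overlapped at 1 sham library, and the log2 fold change of 0.76 ± 0.28 passed. Cdc20, an activator of that complex, had 12.7, 8.02, 4.76 and 5.28 CPM in MI hearts, against 6.53, 4.51 and 4.48 CPM in sham hearts. MI replicate 1 carried the highest value, and the log2 fold change of 0.57 ± 0.30 did not pass.

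The summed members differed within the MI group: before TMM they took 664.046 and 675.492 CPM in replicates 1 and 2, and 442.548 and 459.778 CPM in replicates 3 and 4. Without sham replicate 2 the count of 34 calls became 19, and 18 members were called whichever library was left out. With cardiomyocyte marker level as covariate, 3 members were called and the members' median turned to -0.41. Of all genes, 854 were then called, against 11783 without the covariate. The cardiomyocyte marker level does not overlap between MI and sham hearts, so it and the group cannot be told apart. With library totals, 41 members were called higher and 1 lower, and 86.1% of all called genes were higher, against 53.7% after TMM.

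**Figure D3:**
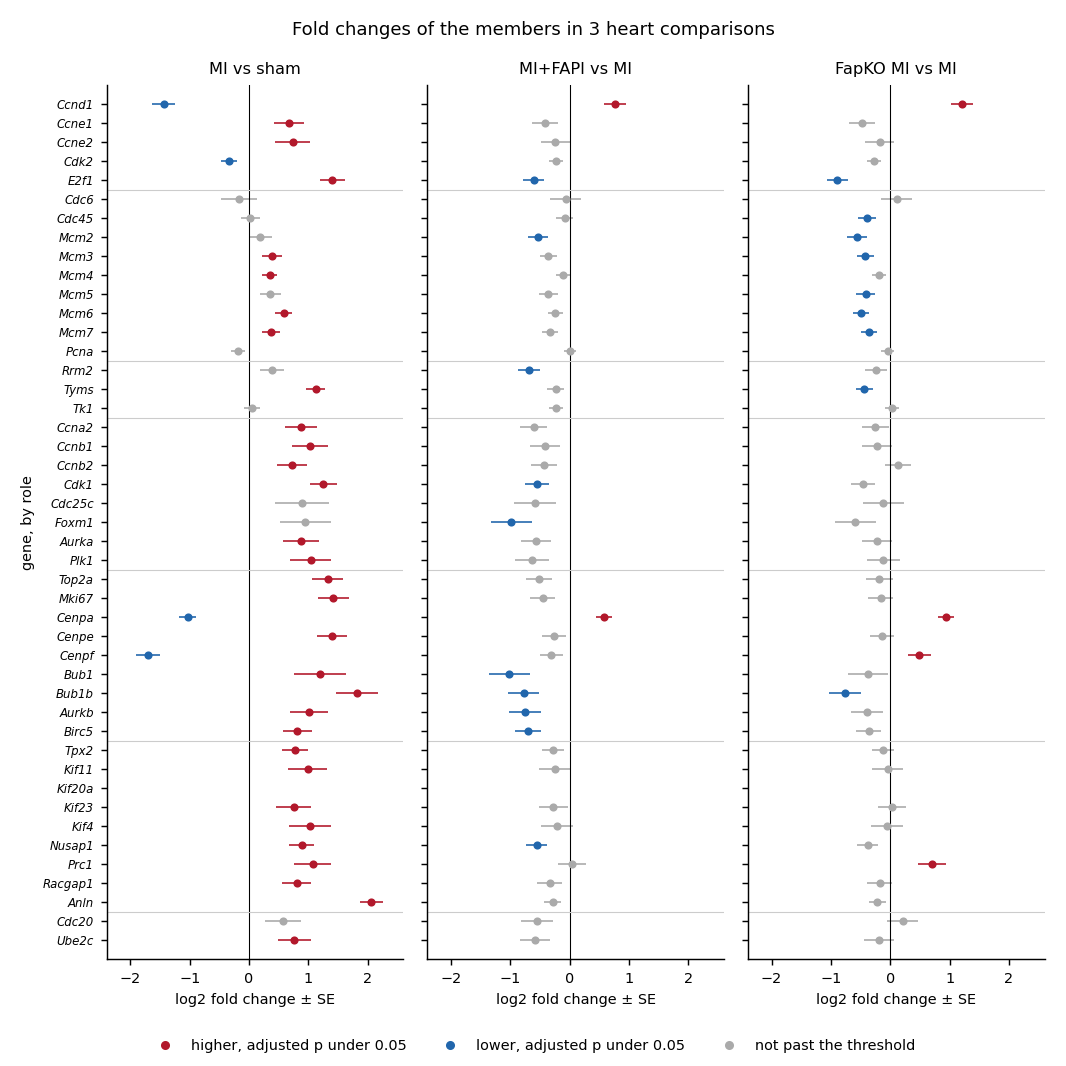
Log2 fold change ± SE of each member, by role, for MI against sham, MI+FAPI against MI and FapKO MI against MI hearts. Red points were called higher and blue points lower at an adjusted p under 0.05 (edgeR), and grey points were not. Some members called with TMM or with library totals change sign between these scalings. They are Cdk2, Cenpa, Cdc6 and Pcna in MI against sham, Pcna in MI+FAPI against MI, and Cenpf and Tk1 in FapKO MI against MI. Members called with neither scaling are not listed.

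With FAPI, fewer members moved, and those that did were mostly lower than in MI hearts. Of 44 members, 2 were called higher and 10 lower in MI+FAPI against MI hearts, while 17.9% of all genes were called higher and 11.9% lower. The members' median log2 fold change was -0.36, against -0.03 for all genes, and 40 of 44 fold changes were negative. Both members that were higher had been lower in MI than in sham hearts. That comparison uses the same MI libraries, so the 2 results are not independent. Ccnd1 had 27.9, 42.4, 24.2 and 27.9 CPM in MI+FAPI hearts, against 17.9, 15.8, 22.03 and 16.1 CPM in MI hearts. All MI+FAPI libraries were above the MI ones, with a log2 fold change of 0.77 ± 0.18 (edgeR, adjusted p = 0.00552). With library totals it was 0.35 and did not pass. Cenpa had 38.5, 44.4, 40.5 and 54.5 CPM in MI+FAPI hearts, against 33.5, 28.4, 34.1 and 23.04 CPM in MI hearts. Its groups did not overlap either, and the log2 fold change was 0.58 ± 0.13 (edgeR, adjusted p = 0.00365). With library totals it was 0.16 and did not pass.

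The 10 lower members came from 6 of the 7 roles. Bub1 had 0.724, 0.767, 0.448 and 0.346 CPM in MI+FAPI hearts, against 1.42, 1.26, 1.09 and 0.771 CPM in MI hearts. Its log2 fold change of -1.02 ± 0.35 was the lowest of those called (edgeR, adjusted p = 0.0367), on 12 to 21 and 20 to 49 counts per library. Its partner Bub1b was lower, at a log2 fold change of -0.78, Aurkb at -0.75 and Birc5 at -0.70. Rrm2 had 7.03, 7.34, 5.47 and 4.74 CPM in MI+FAPI hearts, against 12.1, 10.8, 8.03 and 8.36 CPM in MI hearts, with a log2 fold change of -0.68 ± 0.18. E2f1 had 4.89, 4.09, 4.13 and 3.61 CPM in MI+FAPI hearts, against 6.47, 8.22, 4.67 and 6.05 CPM in MI hearts, and its log2 fold change was -0.61 ± 0.17. The Rrm2 libraries did not overlap, and those of E2f1 did at 1 library on each side. Foxm1 was lower, at a log2 fold change of -0.98, Mcm2 at -0.53 and Nusap1 at -0.56. Cdk1 had 22.5, 19.2, 20.3 and 12.4 CPM in MI+FAPI hearts, and its log2 fold change was -0.56 ± 0.20.

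Several familiar proliferation markers did not pass in this comparison. Mki67 had 7.27, 8.66, 6.1 and 5.46 CPM in MI+FAPI hearts, overlapping MI hearts, with a log2 fold change of -0.46 ± 0.22. Top2a had 15.4, 18.3, 14.3 and 9.82 CPM in MI+FAPI hearts and a log2 fold change of -0.52 ± 0.22. Anln, at 3.65, 3.58, 3.59 and 2.57 CPM in MI+FAPI hearts, had a log2 fold change of -0.29 ± 0.14, and Cenpf, at 11.96, 11.9, 9.72 and 7.22 CPM, one of -0.31 ± 0.19. Pcna, at 24.7, 25.5, 29.7 and 26.7 CPM in MI+FAPI hearts, overlapped MI hearts, with a log2 fold change of 0.0037.

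The count of 12 calls changed with single libraries. It was 4 without MI replicate 1, 3 without MI replicate 2, 7 without MI+FAPI replicate 3 and 3 without MI+FAPI replicate 4, and Ccnd1, Cenpa and Rrm2 were called whichever library was left out. No call of a member was left with cardiomyocyte marker level as covariate, where 26 of all genes were called, against 5081 without it. With library totals 38 members were called, all lower, while 14.6% of all called genes were higher, against 60.1% after TMM. The summed cardiomyocyte markers did not overlap between MI+FAPI and MI hearts, while 3 of the 17 single markers did. In the fit without the covariate, 10 of 10 neutrophil markers (median log2 fold change -3.07), 3 of 4 granulocyte precursor markers (-2.46), 6 of 6 B cell markers (-2.10), 8 of 14 macrophage markers (-0.60) and 2 of 5 T cell markers (-0.63) were called lower in MI+FAPI hearts. The part of these cells in the members' values was not tested.

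**Figure D4:**
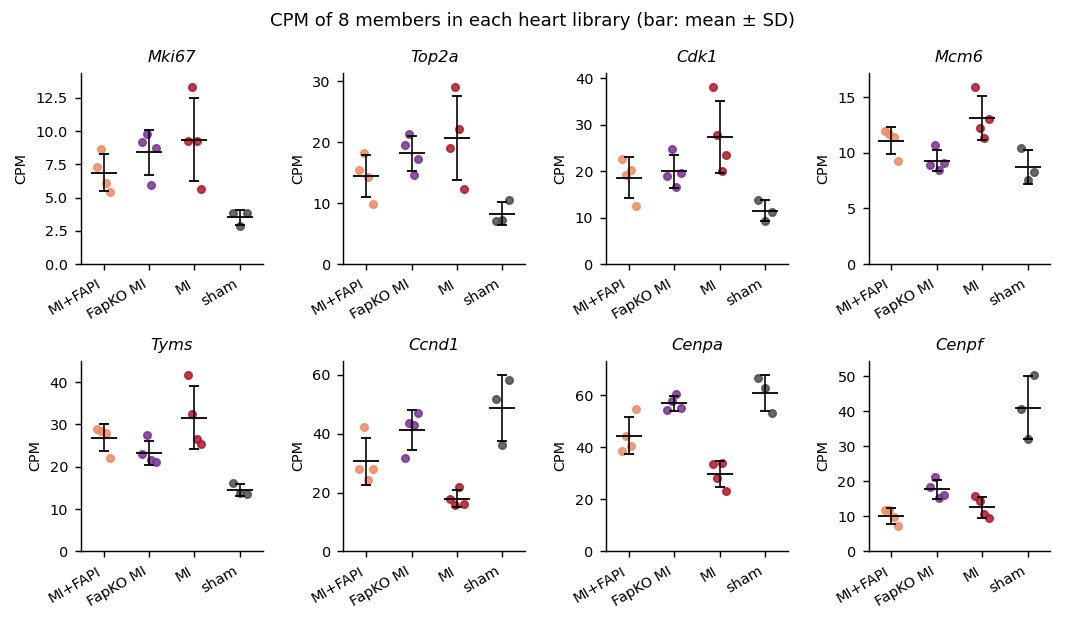
CPM of Mki67, Top2a, Cdk1, Mcm6, Tyms, Ccnd1, Cenpa and Cenpf in each heart library (points), with mean ± SD, for MI+FAPI, FapKO MI, MI and sham hearts. The first 5 are highest in MI and lowest in sham hearts by group mean, while Ccnd1 and Cenpa run in the opposite order and Cenpf is far higher in sham hearts than in any infarcted group; the position of Cenpa against sham hearts changes with library totals.

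In Fap knockout hearts, genes of licensing and of the fork made up most of the lower members, and few mitotic genes passed. Of 44 members, 4 were called higher and 9 lower in FapKO MI against MI hearts, while 25% of all genes were called higher and 26% lower. The share of members called lower was thus close to that of all genes, and the share called higher was below it. The members' median log2 fold change was -0.20, against -0.08 for all genes. Ccnd1 had 31.6, 43.7, 42.9 and 46.9 CPM in FapKO MI hearts, against 17.9, 15.8, 22.03 and 16.1 CPM in MI hearts. The groups did not overlap, and the log2 fold change of 1.20 ± 0.19 was the highest of the members (edgeR, adjusted p = 6.08e-05). Cenpa had 54.3, 57.8, 60.5 and 54.99 CPM in FapKO MI hearts, against 33.5, 28.4, 34.1 and 23.04 CPM in MI hearts. The 4 knockout libraries lay closer together than those of any other heart group, and the log2 fold change was 0.94 ± 0.13 (edgeR, adjusted p = 2.62e-05). Cenpf had 18.3, 21.2, 15.2 and 16.1 CPM in FapKO MI hearts, with a log2 fold change of 0.49 ± 0.19 that turned to -0.06 with library totals. Prc1 had 3.61, 3.85, 2.43 and 2.96 CPM in FapKO MI hearts, against 1.89, 2.53, 2.27 and 1.12 CPM in MI hearts, and its log2 fold change was 0.70 ± 0.23. With library totals that of Prc1 was 0.16 and did not pass.

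Of the 9 licensing and fork genes, 6 were called lower in FapKO MI hearts. Among 35 tested replication genes that are not members, 10 were called lower and 5 higher in the same comparison, with a median log2 fold change of -0.23. Of all genes, 26% were called lower and 25% higher. Mcm6 had 8.93, 10.7, 8.47 and 9.09 CPM in FapKO MI hearts, against 15.9, 12.2, 11.4 and 12.99 CPM in MI hearts. No library of the knockout reached the lowest MI library, and the log2 fold change was -0.49 ± 0.13. Mcm2 had 2.71, 2.96, 3.06 and 3.16 CPM in FapKO MI hearts, against 4.49, 5.41, 3.67 and 3.97 CPM in MI hearts, with a log2 fold change of -0.56 ± 0.17 and no overlap. Mcm3, Mcm5, Mcm7 and Cdc45 were lower, at a log2 fold change of -0.42, -0.41, -0.36 and -0.39. Mcm4 (-0.19), Pcna (-0.04) and Cdc6 (0.11) did not pass. E2f1 had 3.48, 4.12, 2.54 and 3.55 CPM in FapKO MI hearts, against 6.47, 8.22, 4.67 and 6.05 CPM in MI hearts. All knockout libraries were below the MI ones, and the log2 fold change of -0.89 ± 0.18 was the lowest of the members (edgeR, adjusted p = 0.000507). Tyms, at 22.97, 27.5, 21.5 and 21.1 CPM in FapKO MI hearts, had a log2 fold change of -0.44 ± 0.15, and it overlapped MI hearts at 1 library. Bub1b, at 1.67, 1.47, 1.07 and 1.36 CPM in FapKO MI hearts, had one of -0.77 ± 0.27, against 3.28, 2.86, 1.31 and 2.00 CPM in MI hearts.

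The 8 genes of mitotic entry did not pass in FapKO MI against MI hearts, with log2 fold changes of -0.59 to 0.13 and a lowest adjusted p of 0.0716 (edgeR). At an unadjusted p under 0.05, 1 of them was lower. Cdk1 had 18.98, 24.8, 16.5 and 19.5 CPM in FapKO MI hearts, with a log2 fold change of -0.45 ± 0.20, and Ccnb2 had 17.2, 19.5, 10.8 and 14.2 CPM, with one of 0.13 ± 0.22. Mki67 had 9.19, 9.74, 5.93 and 8.74 CPM and Top2a 19.6, 21.3, 14.7 and 17.2 CPM in FapKO MI hearts, with log2 fold changes of -0.16 ± 0.21 and -0.18 ± 0.22. Whether the licensing genes differ from the mitotic genes in this response was not tested. The count of 13 calls became 7 without MI replicate 1 and 7 without FapKO MI replicate 3, and Ccnd1, Cenpa, E2f1, Mcm2 and Mcm6 were called whichever library was left out. It was 0 with cardiomyocyte marker level as covariate, where 115 of all genes were called, against 8700 without it. Without the covariate, 17 of 17 cardiomyocyte markers and 6 of 12 endothelial markers were called higher in FapKO MI against MI hearts. Called lower were 13 of 14 macrophage, 9 of 10 neutrophil and 4 of 4 granulocyte precursor markers. Lower too were 5 of 5 T cell and 3 of 6 B cell markers, and 0 of 12 endothelial markers. The part of these cells in the members' values was not tested. With library totals 2 members were called higher and 32 lower, and 16.6% of all called genes were higher, against 49.1% after TMM.

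Set directly against each other, the inhibitor and knockout hearts differed in 1 member. In MI+FAPI against FapKO MI hearts, Cenpf was called lower, while 6.12% of all genes were called lower and 7.05% higher. Cenpf had 11.96, 11.9, 9.72 and 7.22 CPM in MI+FAPI hearts, against 18.3, 21.2, 15.2 and 16.1 CPM in FapKO MI hearts. The groups did not overlap, and the log2 fold change was -0.80 ± 0.19 (edgeR, adjusted p = 0.0123). Members called higher numbered 0 by edgeR, 0 by DESeq2 and 0 by limma-voom, and 0 were higher at an unadjusted p under 0.05, where 8 were lower. Cdc20 had 6.55, 6.57, 4.13 and 3.87 CPM in MI+FAPI hearts, against 9.1, 10.5, 7.41 and 8.62 CPM in FapKO MI hearts, and its log2 fold change of -0.76 ± 0.27 did not pass (edgeR, adjusted p = 0.0694). The count of 1 became 3 without MI+FAPI replicate 2 and 3 without MI+FAPI replicate 4, and 0 with library totals, where 67.9% of all called genes were higher, against 53.5% after TMM. These hearts differ in Fap status and in treatment, and a member that did not pass is not shown to be alike in them.

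Against sham hearts, which the MI comparison shares, members were called in both directions in inhibitor and in knockout hearts, and 14 of the 15 called higher in knockout hearts were mitotic genes. In MI+FAPI against sham hearts, 9 members were called higher and 4 lower, while 29.2% of all genes were called higher and 26.5% lower. In FapKO MI against sham hearts, 15 were called higher and 2 lower, while 19.2% of all genes were called higher and 20.3% lower. The members' median log2 fold change was 0.28 in MI+FAPI and 0.59 in FapKO MI against sham hearts, with medians of 0.09 and 0.05 for all genes. Anln had a log2 fold change of 1.77 ± 0.20 in MI+FAPI (edgeR, adjusted p = 2.16e-06) and of 1.84 ± 0.20 in FapKO MI hearts (edgeR, adjusted p = 8.67e-06). Its levels were 3.39, 4.05, 3.1 and 3.47 CPM in FapKO MI hearts. Cenpf had log2 fold changes of -2.01 ± 0.20 in MI+FAPI (edgeR, adjusted p = 9.77e-07) and -1.21 ± 0.20 in FapKO MI hearts (edgeR, adjusted p = 0.000306). Mki67 was higher by 0.96 in MI+FAPI and by 1.25 in FapKO MI hearts, and Top2a by 0.80 and 1.14 on the log2 scale.

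By role, 4 of 8 genes of mitotic entry and 6 of 8 of the spindle were called higher in FapKO MI against sham hearts, beside 19.2% of all genes. In MI+FAPI against sham hearts, 1 of 8 and 2 of 8 were, beside 29.2% of all genes. Both comparisons share the sham libraries. In MI+FAPI against FapKO MI hearts, 0 of 8 and 0 of 8 were called, so these counts do not show that the 2 groups differ. With edgeR, the 9 licensing and fork genes passed in neither comparison with sham hearts. Their lowest edgeR adjusted p was 0.0598 in MI+FAPI and 0.0885 in FapKO MI against sham hearts. At an unadjusted p under 0.05, 1 of them was higher in MI+FAPI and 1 lower in FapKO MI hearts. Cdk2 was lower than in sham hearts, at a log2 fold change of -0.57 in MI+FAPI and -0.62 in FapKO MI hearts, and with library totals, at 0.12 and -0.078, neither passed. Cenpa was lower, at a log2 fold change of -0.45 in MI+FAPI hearts, and with library totals it turned to 0.21 and did not pass. Ccnd1 was lower, at a log2 fold change of -0.67 in MI+FAPI hearts, and in FapKO MI hearts its log2 fold change of -0.24 did not pass. With library totals the MI+FAPI value was -0.021 and did not pass either. E2f1 was higher by 0.80 in MI+FAPI hearts, and its log2 fold change of 0.51 in FapKO MI hearts did not pass. With library totals, 33 members were called higher and 1 lower in MI+FAPI, and 35 higher and 1 lower in FapKO MI against sham hearts. The share of all called genes that were higher then became 86.8% in MI+FAPI, against 52.4% after TMM, and 91.7% in FapKO MI, against 48.7%. The count of calls in FapKO MI against sham hearts was 8 without sham replicate 2 and 10 without FapKO MI replicate 1 or 2.

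The rest of the division machinery was described with lists of genes that are not members, beside the 37.1% of all genes called higher and 32% called lower in MI against sham hearts. Among 39 tested other genes of mitosis, 30 were called higher and 2 lower in MI against sham hearts, with a median log2 fold change of 0.93. Smc4, a condensin subunit, was higher by 1.02 ± 0.11 (65.9 ± 2.98 CPM in MI, 32.6 ± 1.98 CPM in sham hearts). Pttg1, encoding securin, was lower, at a log2 fold change of -2.15 ± 0.24 (148 ± 27.9 CPM in MI, 658 ± 90.4 CPM in sham hearts). Among 35 tested other genes of replication, 16 were higher and 6 lower, with a median of 0.39. Dut, a dUTPase, was lower, at a log2 fold change of -1.41 ± 0.11 (38.0 ± 4.55 CPM in MI, 101 ± 8.32 CPM in sham hearts). Gmnn, encoding geminin, which blocks relicensing, was lower, at a log2 fold change of -1.89 ± 0.16 (16.9 ± 2.91 CPM in MI, 62.8 ± 9.84 CPM in sham hearts). In the list of the Rb family, E2F and DREAM, 7 of 14 were higher and 1 lower, E2f3 by 1.26 ± 0.18 and Rbl1 by 1.21 ± 0.25.

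Of 7 inhibitors of the cyclin-dependent kinases, 3 were higher and 2 lower in MI against sham hearts, shares near those of all genes. Cdkn2b, encoding p15, was higher by 3.18 ± 0.27 (18.4 ± 4.49 CPM in MI, 2.03 ± 0.208 CPM in sham hearts). Cdkn1a, encoding p21, was higher by 1.49 ± 0.18 (364 ± 80.2 CPM in MI, 129.6 ± 1.49 CPM in sham hearts). In FapKO MI against MI hearts, Cdkn2b was lower, at a log2 fold change of -1.36 and Cdkn1a at -0.73. Neither passed in MI+FAPI against MI hearts, at -0.47 and -0.10, and Cdkn2c was lower, at a log2 fold change of -0.49. Of the 5 early G1 genes, Myc was higher in MI against sham hearts by 1.29 ± 0.12 (12.5 ± 0.696 CPM in MI, 5.13 ± 0.26 CPM in sham hearts) and Cdk6 by 0.54 ± 0.11. In FapKO MI against MI hearts, Myc was lower, at a log2 fold change of -0.83 and Cdk6 at -0.60. Ccnd2, encoding cyclin D2, was lower in MI against sham hearts, at a log2 fold change of -0.69 (252 ± 35.9 CPM in MI, 406 ± 18.7 CPM in sham hearts). It was higher in FapKO MI against MI hearts by 0.68, as Ccnd1 was. Both comparisons use the same MI libraries, so they are not independent. Values of Ccnd2 with library totals are not given here, so its directions hold for TMM only.

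In culture, nearly the whole program was lower in fibroblasts grown with endothelial cells. Of 44 members tested, 43 were called lower in co-culture against 3D-culture, while 29.5% of all 12293 genes tested were called lower and 30.3% higher. The count of members higher was 0 with edgeR, 0 with DESeq2, 0 with limma-voom, and 0 at an unadjusted p under 0.05. The members' median log2 fold change was -1.90, against -0.06 for all genes. Together they took 810.272 to 902.998 CPM before TMM in co-culture and 2742.782 to 3651.194 in 3D-culture. Co-culture libraries were smaller, at 4735337 to 6346015 counts against 12871240 to 15650221 in 3D-culture, and after thinning all to 4735337 counts 43 members were called lower. Kif20a, with 0 to 35 counts per library, was not tested. With library totals 43 were called lower as well, and 32.7% of all called genes were higher, against 50.7% after TMM.

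**Figure D5:**
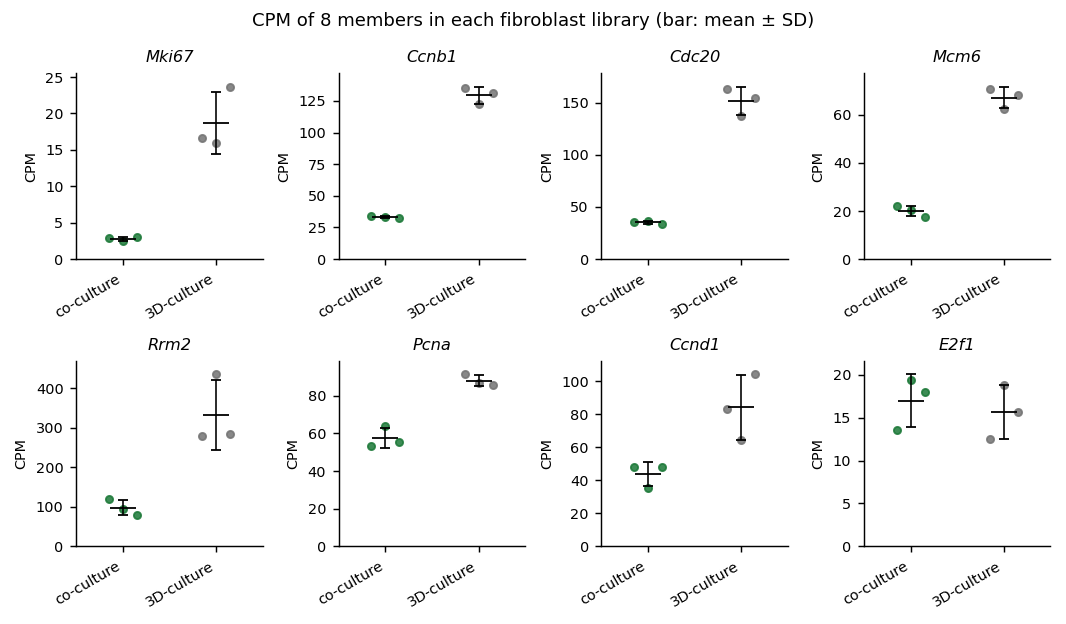
CPM of Mki67, Ccnb1, Cdc20, Mcm6, Rrm2, Pcna, Ccnd1 and E2f1 in each fibroblast library (points), with mean ± SD, for co-culture and 3D-culture. Co-culture libraries lie below all 3D-culture libraries for the first 7 genes, and the groups overlap for E2f1.

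The role medians in co-culture against 3D-culture ran from -1.93 to -2.16 in the 4 mitotic roles, and whether roles differ was not tested. Cdc25c, of mitotic entry, had 1.45, 2.01 and 0.698 CPM in co-culture, against 11.97, 11.8 and 11.2 CPM in 3D-culture. Its log2 fold change of -3.11 ± 0.29 was the lowest of the members (edgeR, adjusted p = 3.42e-05), on 4 to 9 and 148 to 208 counts per library. Ccnb1 had 33.9, 33.1 and 32.5 CPM in co-culture, against 135, 122 and 131 CPM in 3D-culture. The replicates of each group lay close together, and the log2 fold change was -1.97 ± 0.11 (edgeR, adjusted p = 1.84e-06). Tpx2 had 15.8, 15.2 and 15.02 CPM in co-culture, against 65.01, 72.7 and 66.9 CPM in 3D-culture, with a log2 fold change of -2.15 ± 0.12 (edgeR, adjusted p = 1.84e-06). Mki67 had 2.91, 2.46 and 2.97 CPM in co-culture, against 16.6, 16.00 and 23.6 CPM in 3D-culture. No library of one group came near the other, and the log2 fold change was -2.75 ± 0.24. Top2a had 18.7, 14.98 and 13.3 CPM in co-culture, against 66.4, 72.7 and 100.2 CPM in 3D-culture, and a log2 fold change of -2.36 ± 0.20. Kif11 was lower, at a log2 fold change of -2.80, Cenpe at -2.65 and Kif23 at -2.52.

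Cdc20 had 35.6, 36.7 and 33.5 CPM in co-culture, against 163, 137 and 155 CPM in 3D-culture, with a log2 fold change of -2.10 ± 0.12. Cdk1 had 92.1, 82.7 and 70.4 CPM in co-culture, against 237, 191 and 223 CPM in 3D-culture, and a log2 fold change of -1.41 ± 0.14. Per length it was the most abundant of the mitotic kinase members in co-culture, at 22.5 ± 2.38 TPM (a level per length, SD, n = 3), before Plk1 at 13.1 ± 1.09 TPM. In 3D-culture Cdk1 stood at 108 ± 19.3 and Plk1 at 96.6 ± 4.68 TPM (SD, n = 3), within their spread. Cenpa and Cenpf, which had gone against the other mitotic genes in the hearts, went with them here, at -1.42 ± 0.14 and -1.93 ± 0.14. Anln, with the highest fold change in MI against sham hearts, was lower, at a log2 fold change of -2.04.

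Replication and nucleotide genes fell too, with medians of -1.50 and -1.34. Cdc6 had a log2 fold change of -2.38 ± 0.23, larger in size than that of Cdk1. Mcm6 had 22.1, 20.3 and 17.6 CPM in co-culture, against 70.9, 62.4 and 68.5 CPM in 3D-culture. Its log2 fold change was -1.75 ± 0.13, and the other Mcm genes lay between -1.87 (Mcm4) and -1.26 (Mcm3). Pcna had 53.6, 63.7 and 55.7 CPM in co-culture, against 91.4, 86.9 and 85.9 CPM in 3D-culture, and its log2 fold change of -0.61 ± 0.11 was the smallest of those called (edgeR, adjusted p = 0.00157). Rrm2 had 119.5, 95.2 and 79.6 CPM in co-culture, against 279, 435 and 284 CPM in 3D-culture. 3D-culture replicate 2 stood above the others, and the log2 fold change was -1.76 ± 0.21. Tyms had 69.1, 67.5 and 58.1 CPM in co-culture, against 136, 152 and 139 CPM in 3D-culture, and a log2 fold change of -1.14 ± 0.12.

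The G1 genes had the smallest median, -0.94, and E2f1 was the 1 member that did not pass. E2f1 had 13.6, 19.4 and 17.99 CPM in co-culture, against 12.6, 18.9 and 15.7 CPM in 3D-culture. The libraries overlapped, and the log2 fold change of 0.12 ± 0.20 did not pass. Ccnd1 had 48.2, 35.3 and 47.8 CPM in co-culture, against 83.5, 64.7 and 104 CPM in 3D-culture, with a log2 fold change of -0.94 ± 0.20. Cdk2 was lower, at a log2 fold change of -0.75, Ccne1 at -1.36 and Ccne2 at -2.41. Of the genes that are not members, all 34 other replication genes tested and 38 of 40 other mitosis genes were called lower in co-culture. Of the 7 kinase inhibitors, 3 were called higher and 1 lower, and of the 5 early G1 genes, 2 higher and 2 lower. Of all genes tested, 30.3% were called higher and 29.5% lower. Cdkn1c, encoding the kinase inhibitor p57, was higher by 3.99 ± 0.21 (473 ± 61.3 CPM in co-culture, 29.9 ± 7.77 CPM in 3D-culture). Cdkn2b was higher by 1.27 ± 0.13, while Cdkn1a was lower, at a log2 fold change of -1.14 ± 0.11.

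Markers of other cells moved with the cultures as well. Summed macrophage markers stood at 397 to 516 CPM in co-culture and 907 to 1451 CPM in 3D-culture. Leukocyte markers stood at 8.90 to 11.2 CPM and 34.3 to 47.3 CPM in the same groups. Neutrophil markers went the other way, at 34.1 to 45.6 CPM in co-culture and 6.44 to 8.28 CPM in 3D-culture, with 2 of 11 genes past the filter. Granulocyte precursor markers did too, at 15.8 to 17.4 CPM and 0.944 to 1.27 CPM, with 1 of 4 genes past the filter. All of these tested neutrophil and precursor genes were called higher in co-culture. Endothelial markers were low in both, at 27.6 to 32.5 CPM in co-culture and 24.0 to 26.8 CPM in 3D-culture. Fibroblast markers stood at 7895 to 8297 CPM in co-culture and 5256 to 11260 CPM in 3D-culture, with 10 of 11 genes past the filter. The sort took out CD45+ cells from co-culture alone, and the part of the sort and of these cells in the members' values was not tested.

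By level per length (TPM, each gene's share within its library after division by exon length), Pcna came first in MI hearts at 27.5 ± 3.62 TPM, followed by Ccnb2 at 23.2 ± 8.18 and Birc5 at 18.5 ± 6.46 (SD, n = 4), values that do not differ beyond their spread. In sham hearts, Pcna stood at 10.0 ± 1.11, Cenpa at 8.25 ± 0.67 and Ccnd1 at 8.25 ± 2.00 TPM (SD, n = 3). In 3D-culture, Rrm2 led at 289 ± 52.7 TPM, before Ccnb2 at 227 ± 33.8 TPM (SD, n = 3). Kif20a and Foxm1 were lowest in all 3 of these groups. The libraries carry molecular barcodes, and whether reads cover whole transcripts is not given, so the division by length is approximate. Exons of 17 members overlap another annotated gene, among them Ccnd1 with LTO1, Cdk2 with Pmel, Mcm7 with Cops6, Ap4m1, Mir25 and Mir93, Top2a with Gm23451 and Ube2c with Tnnc2. Named copies exist for Pcna, Tyms, Ccnb1, Ccnb2 and Kif4. How reads were assigned between strands and copies is not given, so these levels are uncertain by that share.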

How the data were processed

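Bulk RNA was sequenced from 15 heart and 6 fibroblast libraries. Per the labels' protocols, libraries were made by a modified Smart-seq2 method with molecular barcodes, from total RNA of hearts and polyA RNA of fibroblasts. The deposited values are read counts per gene, one table per library. STAR, HTSeq and the mm10 build are named in the submitters' processing notes, with versions not given in the sources used here. The fibroblast tables, but not the heart tables, carry a duplicate-removal mark in their names. Another table of the whole series has 6 columns that match no sample, and they were not used.

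Of 53801 identifiers, 53620 matched a symbol in GENCODE M21 by identifier without its version, and 0 rows named no gene. Total counts ran from 18474138 to 37287355 in heart and from 4735337 to 15650221 in fibroblast libraries. Genes passing edgeR's filterByExpr (17064 in hearts, 12293 in culture) were fitted with edgeR 4.0.16's quasi-likelihood model in R 4.3.3 after TMM scaling, all heart groups in one fit and the cultures in another. P-values were adjusted by Benjamini-Hochberg over all genes tested, and a gene was called under 0.05. Standard errors are approximate, taken from the fold change and its test. Alternatives used DESeq2 1.42.0, limma 3.58.1, other scalings and filters, a replicate block, a cardiomyocyte covariate, 2-group fits and fits without each library. No replicate pair was a duplicate, with chi-square per degree of freedom of 3.35 to 198.

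On simulated MI against sham counts (16678 genes in the step), 23.9%, 56.7% and 89.4% of genes changed 1.5-, 2- and 4-fold were called, with 5 false calls. For the cultures (11915 genes) the shares were 3%, 46.3% and 83.3%, with 16 false calls. Each simulation changed 67, 67 and 66 genes by these folds, up or down, and kept the same mean in all groups for the rest. Far more genes were called in the data, so these shares need not hold there.

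The members and gene lists were chosen with earlier results of these data known. Values in every library are given for the 2 members of each role with the highest mean CPM over hearts, for Mki67 and Top2a, for members called against most of their role, and for others the text turns on. Full statistics are given in each comparison for the 2 members with the smallest p and the called members with the lowest and highest fold change. For each list of other pathway genes, the 2 with the smallest p in MI against sham hearts are named, and any kinase inhibitor or early G1 gene may be. Promoters came from RefSeq on GRCm38.p6. Figures were drawn with matplotlib 3.10.9.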

Additional observations from a re-analysis of the deposited data

Results flagged for a closer look

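Among 135 sets of 4 heart libraries, one for each member in each infarcted group, 2 held a library far from the others, where chance flags about 1 in 20. Tyms stood at 22.17 CPM in MI+FAPI replicate 4, with the other libraries of that group at 27.89, 28.52 and 28.84 CPM. Anln stood at 2.57 CPM in MI+FAPI replicate 4, with the others at 3.579, 3.588 and 3.653 CPM. Both values came from the same library, the lowest of its group for both genes.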

How the results depend on the processing

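The number of members called was within 1.5 times the reported number in every comparison with RLE size factors and with a filter of 1 CPM in 3 libraries. With library totals it was 38 in MI+FAPI against MI, 34 in FapKO MI against MI, 0 in MI+FAPI against FapKO MI, 34 in MI+FAPI against sham and 36 in FapKO MI against sham hearts. The cause was not tested. In MI+FAPI against FapKO MI hearts it was 4 with no filter on low counts, 3 with DESeq2 and 2 with those groups alone. In FapKO MI against sham hearts it was 10 with limma-voom and 26 with those groups alone. A log2 fold change of at least 1 in size left 17 calls in MI against sham, 1 in MI+FAPI against MI, 1 in FapKO MI against MI, 0 in MI+FAPI against FapKO MI, 5 in MI+FAPI against sham and 7 in FapKO MI against sham hearts. With cardiomyocyte marker level as covariate the numbers, in the same order, were 3, 0, 0, 3, 3 and 7. Of all genes, 854, 26, 115, 1525, 5137 and 4346 were then called, against 11783, 5081, 8700, 2247, 9517 and 6740 without it. Leaving out 1 library at a time gave 19 to 34, 3 to 16, 7 to 15, 1 to 3, 10 to 19 and 8 to 21 members called in that order, and 43 to 43 in the cultures.

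Deviations of same-numbered libraries correlated at -0.294 to 0.322. Differently numbered libraries were not compared in this way, so whether replicate numbers pair the samples was not settled. With the replicate number as a block, 5 members were called in MI+FAPI against FapKO MI hearts and 21 in MI+FAPI against sham hearts, and the other counts stayed within 1.5 times.

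Directions turned with 2 settings, listed here for members called in the reported fit or under that setting. Members called in neither may have changed sign too. With library totals, the log2 fold changes in MI against sham hearts became 0.76 for Cdk2, 0.91 for Cdc6, 0.90 for Pcna and 0.052 for Cenpa. In MI+FAPI against MI hearts Pcna became -0.41, and in FapKO MI against MI hearts Tk1 became -0.52 and Cenpf -0.064. In MI+FAPI against sham hearts Cdk2 became 0.12, Cdc45 0.62, Mcm5 0.67, Pcna 0.50, Tk1 0.49 and Cenpa 0.21, and in FapKO MI against sham hearts Mcm3 became 0.51 and Cenpa 0.44. With the covariate, MI against sham hearts gave -0.69 for Ccne1, -0.040 for Ccne2, -0.023 for E2f1, -0.029 for Mcm3, -0.077 for Mcm4, -0.18 for Mcm6, -0.76 for Mcm7, -0.48 for Ccna2, -0.65 for Ccnb1, -0.75 for Ccnb2, -0.54 for Cdk1, -1.02 for Aurka and -0.47 for Plk1. It gave -0.40 for Bub1b, -0.72 for Aurkb, -0.68 for Birc5, -0.15 for Tpx2, -0.11 for Kif11, -0.81 for Kif23, -0.19 for Nusap1, -0.42 for Racgap1 and -1.27 for Ube2c. It gave 0.25 for E2f1, 0.51 for Cdk1, 0.58 for Bub1b, 0.32 for Aurkb, 0.19 for Birc5 and 0.094 for Nusap1 in MI+FAPI against MI hearts. In FapKO MI against MI hearts it gave 0.18 for E2f1, 0.16 for Mcm5, 0.077 for Mcm6, 0.50 for Mcm7, 0.30 for Tyms and 0.92 for Bub1b, and in MI+FAPI against sham hearts -0.030 for Cdk1. The covariate and the groups move together, so the cause cannot be told apart.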
